A study of Phaffia rhodozyma with 6 samples.

Results

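The genes described here are those of Phaffia rhodozyma, a basidiomycete yeast that makes the red carotenoid astaxanthin, whose annotated names place them in the proteasome or the ubiquitin system. A gene was a member when its name contained proteasome, ubiquitin, cullin, F-box, SUMO or NEDD8 in any case, unless the name also contained ribosomal, DnaJ, ubiquinol or, in capitals, RAD. This gave 134 of the 6363 genes in the table, of which Cuffdiff tested 133. The untested member was a peptidase C19 gene (CDZ97950) with 0.157 and 0.202 FPKM.

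RNA was sequenced from 3 fermenter cultures of BPAX-A1, a mutagenised strain, and 3 of the wild-type strain CBS6938. All were grown on sucrose in defined medium at pH 5.5, 20 °C and 70% dissolved oxygen and taken in late exponential phase, when astaxanthin formation was fastest. BPAX-A1 is described in the labels only as mutagenised, so the altered loci are not known here. The deposited table reports every gene by a single FPKM value in a condition named q1 and another in q2, and no source used here says which of them is the mutant. FPKM is the number of sequenced fragments scaled by transcript length and by library size. All directions are those of q2 relative to q1. Values of single cultures were not analysed here, so no spread between cultures can be shown, and the depth behind each value is unknown. Each log2 ratio of q2 over q1 is given with an implied SE, the error that Cuffdiff's p-value implies for it, which is not a measured spread between cultures. FPKM values are relative to the library, so more transcript per cell cannot be told apart from less of other RNA.

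Ubiquitin is a small protein that is attached to other proteins through a chain of enzymes. An activating enzyme (E1) charges it, a conjugating enzyme (E2) carries it, a ligase (E3) selects the target, and deubiquitinating proteases remove it. Proteins tagged with ubiquitin chains are unfolded by the regulatory particle of the 26S proteasome and cut inside its barrel-shaped 20S core. SUMO and NEDD8 are related modifiers with activating enzymes of their own, and NEDD8 is attached to cullins, the scaffolds of a large ligase family in which F-box proteins choose the target.

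One fact of the whole table bears on every direction. The FPKM values summed to 2.10 times as much in q2 as in q1, and to 1.32 times as much when the 126 genes named as ribosomal proteins were left out. The median log2 ratio of all tested genes was 0.11, and 57.7% of them had a higher value in q2. Scaling both conditions to the same sum takes 1.07 from every log2 ratio, and then 16.9% of the tested genes had a higher value. Ratios are therefore read against the median of all tested genes. On the log2 scale with 1 FPKM added to both values, proteasome genes had a median of 0.53, the activating and conjugating enzymes 0.02, ligases 0.24 and deubiquitinating proteases 0.06. After scaling to the same sum all of these medians were negative, and that of the proteasome genes was -0.53 against -0.88 for all tested genes.

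**Figure D1:**
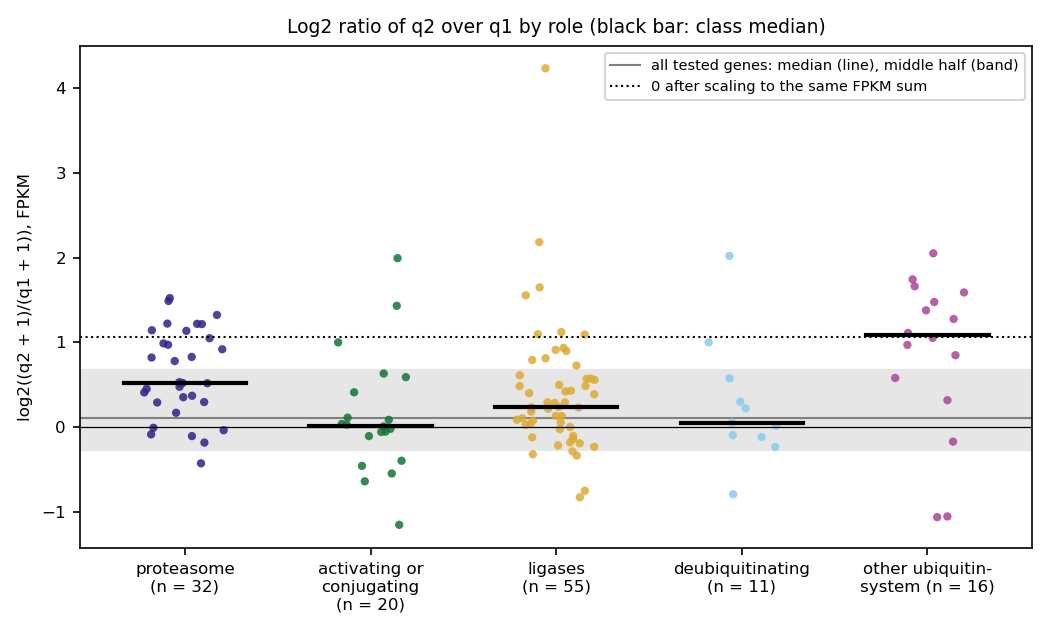
Log2 ratio of q2 over q1, with 1 FPKM added to both values, for each of the 134 members (points) by role, with the class median as a black bar. The grey line and band are the median and the interquartile range of all tested genes, and points above the dotted line at 1.07 would still be higher in q2 after scaling to the same FPKM sum; the proteasome median of 0.53 lies above the grey line but below the dotted one.

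Of the 133 tested members, 1 was called at a q-value below 0.05, which is 0.752%, where 5.53% of all 6272 tested genes were called. It was higher in q2, as were 3.65% of all tested genes, while 1.88% were called lower. Without adjustment, 13 members (9.77%) were higher and 3 (2.26%) lower with p below 0.05, against 10.5% higher and 4.13% lower over all tested genes. Neither share of the members exceeded that of the whole table. At q below 0.10 and below 0.01 the count of members was still 1, where 7.3% and 3.06% of all tested genes passed. Higher values in q2, called or not, were found for 99 of the 134 members (73.9%), against 57.7% of the tested genes. On the same-sum scale the shares were 27 of 134 (20.1%) and 16.9%. The lowest q-value among the members not called was 0.110 in the authors' deposited table. The smallest absolute log2 ratio among all called genes was 1.32, and 15 uncalled members lay at or above it. The median implied SE was 0.53 for the members and 0.51 for all tested genes.

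The 20S core was represented by 13 genes, close in level in q1 and more spread in q2. In q1 they lay between 176 and 348 FPKM, a range of 1.97-fold, with an SD of 0.27 on the log2 scale among the genes. In q2 they lay between 162 and 602 FPKM, a range of 3.71-fold and an SD of 0.58. These SDs describe unequal levels among subunits that assemble in equal numbers, and no test of their difference was possible without values per culture. The median log2 ratio was 0.83, with 11 of 13 higher in q2, but 4 of 13 after scaling to the same sum. None of the 13 was at an unadjusted p below 0.05, where 14.6% of all tested genes were, and so few genes tell little about that share.

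The core gene with the highest ratio was annotated only as 20s proteasome subunit (CED83669, scaffold 69, 425840 to 427146). Its level was 209 FPKM in q1 against 602 in q2, a log2 ratio of 1.53 with an implied SE of 0.96 and a q-value of 0.487 in the authors' deposited table. A gene named proteasome subunit (CED82428) had 219 and 513 FPKM, a log2 ratio of 1.23 with an implied SE of 0.95. Another 20s subunit gene (CED85233) had 241 and 560 FPKM (log2 ratio 1.22, implied SE 0.89). These 3 genes and alpha type 5 (CDZ97735, 250.3 and 552 FPKM, log2 ratio 1.14) were the core genes still higher in q2 on the same-sum scale.

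Alpha subunits form the outer rings of the core and gate the entry of substrate. Alpha type 4 (CDZ96506) had 252 FPKM in q1 against 501 in q2, a log2 ratio of 0.99 with an implied SE of 0.74. Beta subunits form the inner rings and hold the catalytic sites, although beta 3 is not itself catalytic in the yeasts and mammals where it was studied. The gene named beta 3 (CED82582) had 218 and 162 FPKM, a log2 ratio of -0.43 with an implied SE of 0.49, the lowest of the core. The gene named endopeptidase complex beta subunit (CDZ96951) had 237 and 290.3 FPKM, a log2 ratio of 0.29 with an implied SE of 0.56. The interval implied for beta 3, -1.39 to 0.53, overlapped that of the highest core gene, -0.35 to 3.41.

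Of the other core genes named only as 20s subunits, CED82608 had 176 and 347 FPKM (log2 ratio 0.98) and CDZ96651 had 302 and 537 (0.83). CED85449 had 308 and 545 FPKM (0.82), and CED84618 had 195 and 279 (0.52). The core gene with the highest level in q1, CDZ97589, had 348 and 392 FPKM (0.17), and CDZ97582 had 259 and 258 (-0.01). Both of the last lie on the short scaffold 141, which carries 16 genes of the table. Which ring position each of these genes fills is not given in the table.

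**Figure D2:**
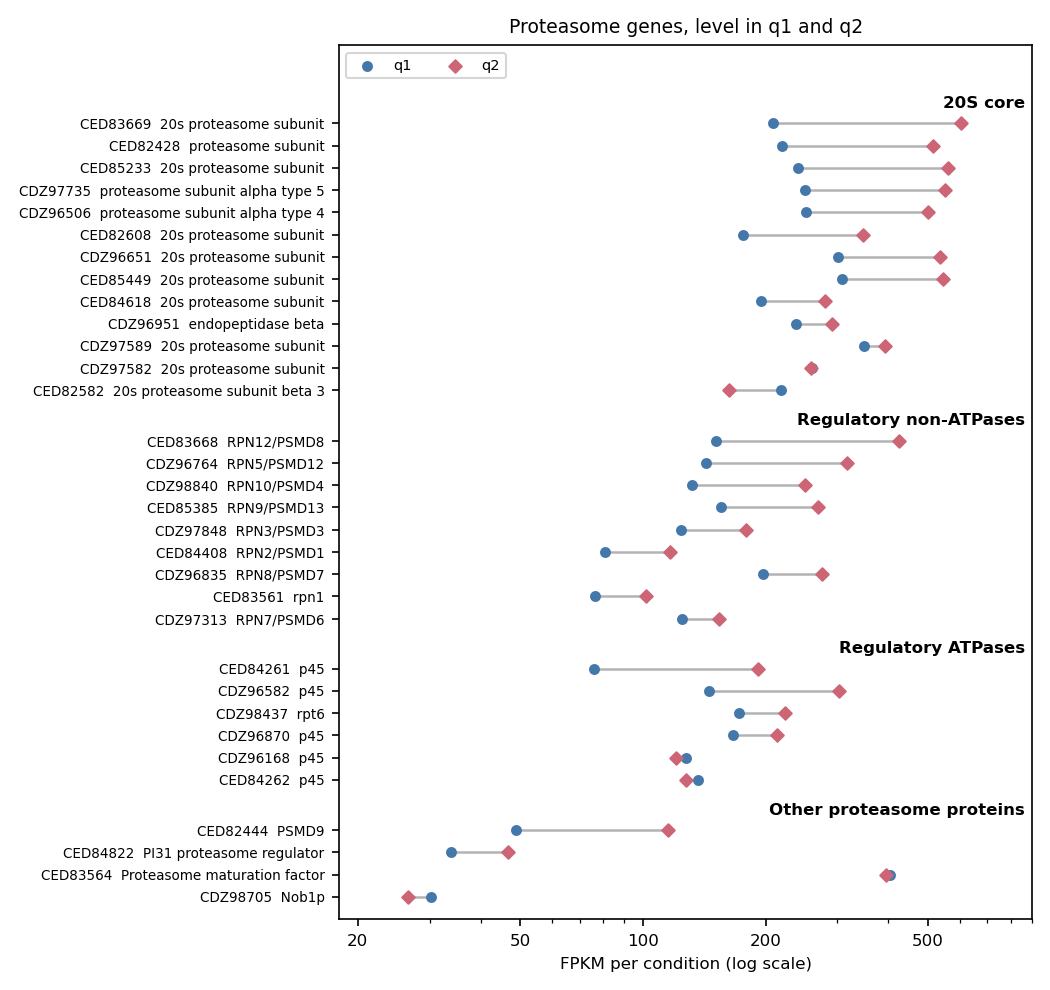
FPKM of the 32 proteasome genes on a log axis, with a circle for q1 and a diamond for q2, grouped by part of the complex and sorted by log2 ratio. The 13 core genes lie between 176 and 348 FPKM in q1 and spread from 162 to 602 in q2, and all 9 non-ATPase regulatory subunits have the higher value in q2 as deposited, but 2 of them after scaling to the same FPKM sum.

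The regulatory particle recognises the ubiquitin chain, removes it and unfolds the substrate. Its 15 genes had lower levels than the core in both conditions, with medians of 137 FPKM in q1 and 213 in q2 against 241 and 501 for the core. The core median was thus 1.76 times that of the regulatory subunits in q1 and 2.35 times in q2. All 9 non-ATPase subunits had a higher value in q2, with a median log2 ratio of 0.53, but 2 of 9 on the same-sum scale. None of the 9 was at an unadjusted p below 0.05, where 14.6% of all tested genes were.

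RPN12 (CED83668, scaffold 69, 424383 to 425597), a subunit of the lid, had the highest ratio of them. It had 151 FPKM in q1 against 426 in q2, a log2 ratio of 1.50 with an implied SE of 0.96 and a q-value of 0.502 in the authors' deposited table. RPN5 (CDZ96764), also of the lid, had 143 and 317 FPKM (log2 ratio 1.15, implied SE 0.94). These were the subunits that kept a higher value in q2 after scaling. RPN10 (CDZ98840), a ubiquitin receptor in Saccharomyces cerevisiae, had 132 and 250.3 FPKM, a log2 ratio of 0.92 with an implied SE of 0.86. Its gene span of 9071 bases was the longest among the proteasome genes.

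The lid subunits RPN9 (CED85385) and RPN3 (CDZ97848) had log2 ratios of 0.78 and 0.53. RPN8 (CDZ96835), which in S. cerevisiae pairs with the deubiquitinating subunit of the lid, had 197 and 275 FPKM (log2 ratio 0.48), and RPN7 (CDZ97313) had 125 and 154 (0.30). RPN1 and RPN2 are the largest subunits of the particle and serve as docking platforms. They had the lowest levels of the 9, with 76.3 and 102 FPKM for RPN1 (CED83561, log2 ratio 0.42) and 80.7 and 116 for RPN2 (CED84408, log2 ratio 0.53).

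The ATPases form the ring that pulls substrates into the core. One gene was named rpt6 and 5 were named 26s proteasome subunit p45, an older name of the same ATPase, so the table does not tell these 5 apart. Of the 32 proteasome genes, 1 was at an unadjusted p below 0.05, against 14.6% of all tested genes. This was CED84261 (scaffold 69, 2174653 to 2175697), 1 of the 6 ATPases. It had 76.1 FPKM in q1 against 192 in q2, a log2 ratio of 1.34 with an implied SE of 0.67, p 0.0461 and q 0.324 in the authors' deposited table, and it was not called. Its span of 1045 bases was the shortest of the 6, which otherwise covered 1786 to 2644 bases. The adjacent gene CED84262 (2175817 to 2177817), which bears the same name, had 137 and 127 FPKM and a log2 ratio of -0.11 with an implied SE of 0.53. The remaining p45 genes had log2 ratios of 1.05 (CDZ96582), 0.36 (CDZ96870) and -0.08 (CDZ96168), and rpt6 (CDZ98437) had 0.37. The sources used here do not say how reads that match several related genes were assigned, so the split of reads among the p45 genes is uncertain.

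These neighbours and the pair RPN12 and CED83669 were the only members found side by side on a scaffold. RPN12 and the 20s subunit gene lie 242 bases apart and had log2 ratios of 1.50 and 1.53. The p45 pair lies 119 bases apart and had 1.34 and -0.11. The table gives no strand, and no member's span overlapped that of another gene.

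Proteins named for the proteasome but not parts of its core or regulatory particle numbered 4. PSMD9 (CED82444), whose yeast counterpart is an assembly chaperone of the ATPase ring, had 48.9 and 115 FPKM, a log2 ratio of 1.24 with an implied SE of 0.64, and p 0.0536 in the authors' deposited table. The proteasome maturation factor (CED83564), which assists assembly of the core, had 404 and 395 FPKM (log2 ratio -0.04, implied SE 0.50). The PI31 regulator (CED84822) had 33.8 and 46.6 FPKM (0.46), and Nob1p (CDZ98705), known in S. cerevisiae as a nuclease that matures ribosomal RNA, had 30.2 and 26.5 (-0.19). Over the 28 core and regulatory genes alone the median log2 ratio was 0.66, with 24 higher as deposited and 7 on the same-sum scale.

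Most proteasome genes lay between 100 and 1000 FPKM, where all tested genes had lower median ratios, a difference that was not tested. Between 300 and 1000 FPKM, taken as the mean of both conditions, the 337 tested genes had a median log2 ratio of -0.04, and the 9 proteasome genes there had 0.99. Between 100 and 300 FPKM the medians were 0.07 for 1113 genes and 0.50 for 18 proteasome genes. Between 30 and 100 FPKM 2450 genes had a median of 0.095 and 4 proteasome genes one of 0.49. Between 10 and 30 FPKM the order was the other way round, with 0.12 for 1580 genes and -0.18 for the 1 proteasome gene there, Nob1p. Above 1000 FPKM, where no proteasome gene lies, the median of 159 genes was 1.02. The median implied SE of the proteasome genes was 0.68, above the 0.51 of all tested genes.

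The class of activating and conjugating enzymes had a median log2 ratio of 0.02, where that of all tested genes was 0.11. No gene of this class was called, against 5.53% of all tested genes. Of 20 activating and conjugating enzymes, 11 had a higher value in q2, and 2 after scaling to the same sum. Unadjusted p-values below 0.05 went to 2 of the 20 with higher values and 1 with a lower value, against 10.5% and 4.13% of all tested genes. The 15 conjugating enzymes had a median of -0.02 and the 5 activating enzymes one of 0.59. Their median level was 62.2 FPKM in q1 and 82.9 in q2, where proteasome genes had 169 and 272.

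The ubiquitin-activating enzyme gene (CED85480) had 96.8 and 99.4 FPKM, a log2 ratio of 0.04 with an implied SE of 0.80. An E1-like gene (CED85092, scaffold 249, 492483 to 495573) had 47.5 FPKM in q1 against 20.9 in q2. This is a log2 ratio of -1.19 with an implied SE of 0.45, p 0.0085 and q 0.110 in the authors' deposited table, the lowest q-value of any uncalled member. UBA2, the catalytic subunit of the SUMO-activating enzyme (CDZ97771), had 48.2 and 195 FPKM, a log2 ratio of 2.02 with an implied SE of 0.91 and a q-value of 0.233 in the authors' deposited table. The NEDD8-activating genes (CDZ96210 and CDZ96241) had log2 ratios of 0.64 and 0.60, with 59.9 and 93.5 FPKM for the first and 34.7 and 52.7 for the second.

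Among conjugating enzymes, which carry the activated modifier, CED82883 (scaffold 52, 689837 to 691134) had the highest ratio, with 124 and 337 FPKM. Its log2 ratio was 1.44 with an implied SE of 0.72, p 0.0469 and q 0.328 in the authors' deposited table. The 24 kDa enzyme (CED84954) followed with 67.5 and 136 FPKM (log2 ratio 1.01, implied SE 0.54). The most abundant was CED83733, with 806 FPKM in q1 against 517 in q2, and it also had the lowest ratio, -0.64 with an implied SE of 0.58. CED83762 had 213 and 145 FPKM (-0.55). The gene named ubiquitin-conjugating enzyme 9 (CED84191), the SUMO-conjugating enzyme in S. cerevisiae, had 185 and 140.4 FPKM, a log2 ratio of -0.40 with an implied SE of 0.45. The other 10 conjugating enzymes lay between -0.46 and 0.43.

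Deubiquitinating proteases cut ubiquitin from proteins or chains. Of 11, 7 had a higher value in q2, and 1 after scaling to the same sum. Their median of 0.06 is the value of the untested gene CDZ97950 with 1 FPKM added, and without a pseudocount the class median was 0.23. A ubiquitin-specific protease (CED82090, scaffold 33, 270387 to 272106) had 68.4 and 281 FPKM. This gave a log2 ratio of 2.04 with an implied SE of 1.0, p 0.0408 and q 0.302 in the authors' deposited table. A ubiquitin C-terminal hydrolase (CED82681) had 33.6 and 68.2 FPKM (log2 ratio 1.02, implied SE 0.67). The genes named hydrolase 14 and hydrolase 5 have mammalian namesakes that act at the proteasome and on free ubiquitin chains. They had 28.8 and 43.4 FPKM (CDZ98827, log2 ratio 0.59) and 76.9 and 70.9 FPKM (CDZ97218, log2 ratio -0.12). UCHL1 (CDZ98650) was the lowest of the class, with 66.0 and 37.7 FPKM, a log2 ratio of -0.81 with an implied SE of 0.42 and p 0.0549 in the authors' deposited table.

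**Figure D3:**
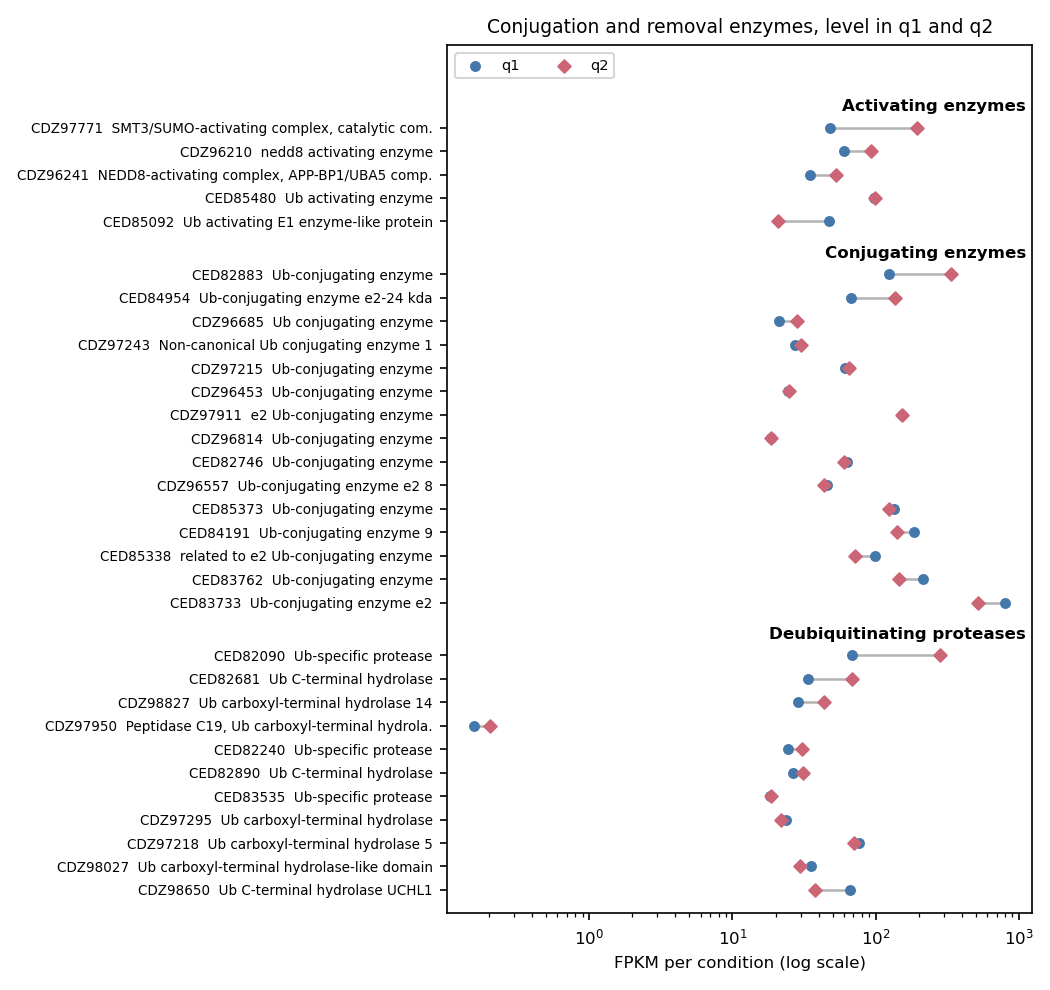
FPKM of the 20 activating and conjugating enzymes and the 11 deubiquitinating proteases on a log axis, with a circle for q1 and a diamond for q2, sorted by log2 ratio within each class. Circles and diamonds lie close together for most conjugating enzymes, and the widest gaps are those of UBA2 (48.2 and 195 FPKM) and the ubiquitin-specific protease CED82090 (68.4 and 281 FPKM).

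Ligases were the most numerous class, with 55 genes at a median of 23.5 FPKM in q1 and 32.1 in q2. Higher values in q2 were found for 42 of the 55, and for 7 after scaling to the same sum. A predicted E3 ubiquitin ligase (CED83815, scaffold 69, 866922 to 870931) rose from 12.4 FPKM in q1 to 252 in q2, a 20.2-fold difference. It was the member that Cuffdiff called, with a log2 ratio of 4.34, p 5e-05 and q 0.00226 in the authors' deposited table. This p-value is the lowest that the table holds, so no SE can be derived from it. The ratio stayed at 3.27 after scaling to the same sum. Its neighbours on the scaffold were an acyl-oxidase gene (CED83814, 31.9 and 44.9 FPKM, log2 ratio 0.49) and a pif1 DNA repair gene (CED83816, 7.26 and 12.7 FPKM, log2 ratio 0.81), so the size of the change was not shared by the genes beside it. A DnaJ chaperone gene 3 places further on (CED83818, 11.7 and 40.8 FPKM, log2 ratio 1.80) was also called, with q 0.00705 in the authors' deposited table. A gene with TPR repeats 3 places before the ligase (CED83812, 24.7 and 105.8 FPKM, log2 ratio 2.10) was not called. Its q-value was 0.244 in the authors' deposited table. The target of this ligase is not named in the table.

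Another 15 genes carry the same name, predicted E3 ubiquitin ligase, and over all 16 the median log2 ratio was 0.13, close to that of the whole table. With the called gene, 4 of the 16 were higher at an unadjusted p below 0.05 and 0 lower, against 10.5% and 4.13% of all tested genes. Over all 55 ligases the counts were 6 higher and 1 lower, and 16 genes tell little about such shares. Beside the called gene, those of this name at that p were CED82508 (11.1 and 34.7 FPKM, log2 ratio 1.64), CDZ96660 (15.1 and 33.5, 1.15) and CDZ98801 (12.0 and 21.8, 0.86). All 3 were higher in q2 as deposited, and CDZ98801 was not on the same-sum scale. Their q-values ran from 0.280 to 0.303 in the authors' deposited table. Among ligases of other names, CED82527 had 26.7 and 86.0 FPKM, a log2 ratio of 1.69 with an implied SE of 1.03. The ligase with the highest level in q1 was CDZ97712, described as interacting with an arginine methyltransferase. It had 419 and 249 FPKM, a log2 ratio of -0.75 with an implied SE of 0.58. The lowest predicted E3 was CDZ97323, with 13.0 and 10.1 FPKM (-0.36).

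F-box proteins bring substrates to cullin ligases, although several with JmjC or leucine-rich repeat domains are assigned to the class here by name alone. Of 17, 15 had a higher value in q2, and 2 on the same-sum scale, with a median log2 ratio of 0.29. A Cdc4-related gene (CDZ96490) had the highest ratio, with 98.8 and 453 FPKM, a log2 ratio of 2.20. Its implied SE of 1.89 was large and its q-value was 0.666 in the authors' deposited table. Cdc4 in S. cerevisiae recognises phosphorylated cell cycle proteins. FBX9 (CED82771) had a smaller ratio with a smaller error, 16.7 and 36.9 FPKM, a log2 ratio of 1.14 with an implied SE of 0.45, p 0.0114 and q 0.133 in the authors' deposited table. An F-box domain gene (CED83817) lying 2 genes from the called ligase had 14.8 and 29.3 FPKM (log2 ratio 0.98, implied SE 0.43). In the other direction, the F-box domain gene CDZ98364 had 58.3 and 32.4 FPKM (-0.84, implied SE 0.43). The 3 cullins, which scaffold these ligases, had log2 ratios of 0.09 (CED85187), -0.12 (CDZ97609) and -0.29 (CDZ96438).

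**Figure D4:**
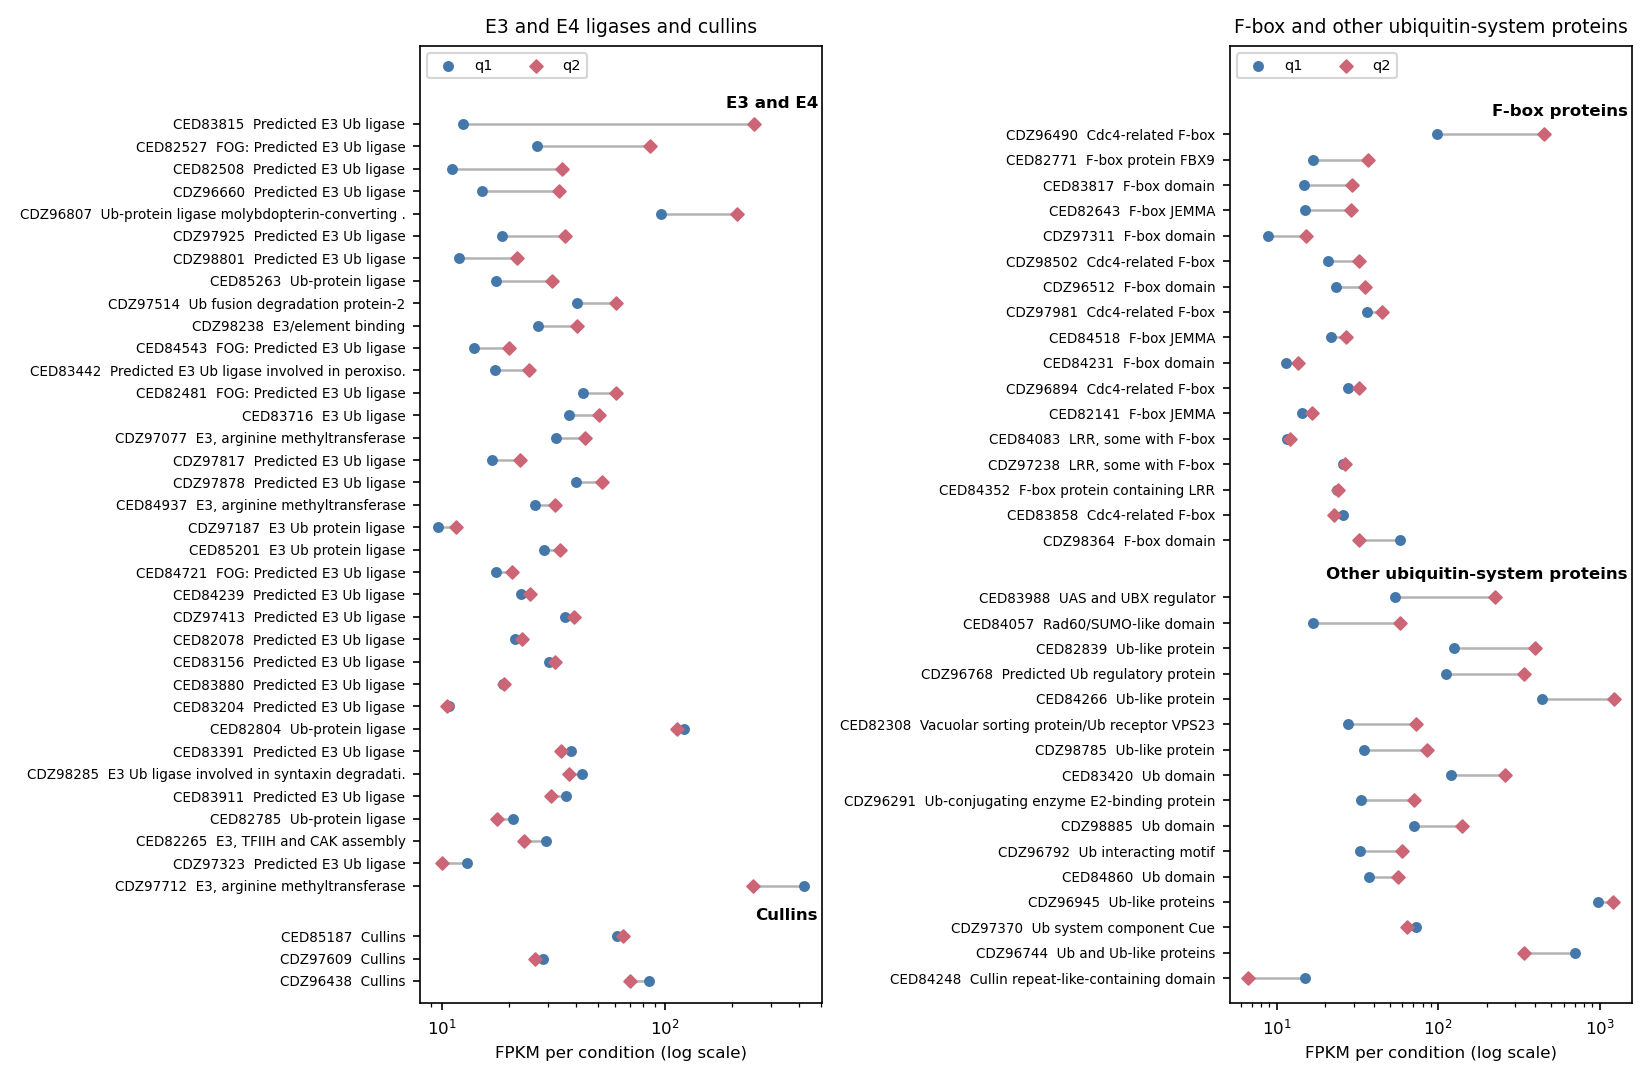
FPKM of the 55 ligases and the 16 other ubiquitin-system proteins on log axes, with a circle for q1 and a diamond for q2, sorted by log2 ratio within each group. The called ligase CED83815 (12.4 and 252 FPKM) has the widest gap, and 13 of the 16 other ubiquitin-system proteins have the higher value in q2 as deposited, against 9 after scaling to the same FPKM sum.

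The 16 remaining members are named for ubiquitin-like or SUMO-like proteins and domains, for receptors, binding proteins and regulators, or for a cullin repeat-like domain. The median ratio of this class was the highest of the 5. It was 1.08 as deposited and 0.03 after scaling to the same sum, where 9 of 16 were still higher in q2. None was called, against 5.53% of all tested genes. Cuffdiff's p-value before adjustment was under 0.05 for 4 of the 16, with the larger value in q2 for 3 and in q1 for 1. Over all tested genes these shares were 10.5% and 4.13%, and 16 genes tell little about such shares. The class was formed of what the other role words did not take, so its members have no single function.

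A regulator with UAS and UBX domains (CED83988, scaffold 69, 1370080 to 1372358) led this class. UBX proteins are known as adaptors of the unfoldase Cdc48. It had 53.6 and 225 FPKM, a log2 ratio of 2.07 with an implied SE of 0.86, p 0.0166 and q 0.168 in the authors' deposited table. A gene with a Rad60/SUMO-like domain (CED84057) had 16.6 and 58.1 FPKM (log2 ratio 1.80, implied SE 0.74, q 0.156 in the authors' deposited table), and a ubiquitin domain gene (CDZ98885) had 70.9 and 139.9 FPKM (0.98, implied SE 0.45). The 4 genes named exactly ubiquitin-like protein or proteins all had higher values in q2, and 3 of them on the same-sum scale. A gene named ubiquitin and ubiquitin-like proteins (CDZ96744) was not counted with them and had a lower value, given below. The highest levels among all members in q2 were those of CED84266, with 438 and 1220.2 FPKM (log2 ratio 1.48, implied SE 0.92), and CDZ96945, with 971 and 1212 FPKM (0.32, implied SE 0.64).

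Lower values in this class were found for 3 genes. A gene with a cullin repeat-like domain (CED84248), a fold that is not confined to cullins, had 15.0 FPKM in q1 against 6.65 in q2. Its log2 ratio was -1.17 with an implied SE of 0.50, p 0.0191 and q 0.186 in the authors' deposited table. The gene named ubiquitin and ubiquitin-like proteins (CDZ96744) had 703 and 338 FPKM (-1.05, implied SE 0.67). The Cue gene (CDZ97370), named for a ubiquitin-binding domain, had 72.6 and 64.4 FPKM (-0.17).

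Set side by side, the proteasome median exceeded that of the 86 ligases, activating, conjugating and deubiquitinating enzymes as 1 set by 0.33 on the log2 scale (0.53 against 0.20). As deposited, the gap was 0.51 to the activating and conjugating enzymes, 0.47 to the deubiquitinating proteases and 0.29 to the ligases. The gap to the deubiquitinating proteases rests on the untested gene CDZ97950. Without a pseudocount it was smaller, with medians of 0.53 for the proteasome and 0.23 for the deubiquitinating proteases. The residual class lay 0.56 above the proteasome. Without values per culture these gaps could not be tested, since genes are not replicates of a condition. Levels differed more than ratios, the proteasome median being 6.03 times that of the 86 enzymes in q1 and 8.04 times in q2. As a share of the FPKM sum, proteasome genes made up 0.557% in q1 and 0.434% in q2.

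**Figure D5:**
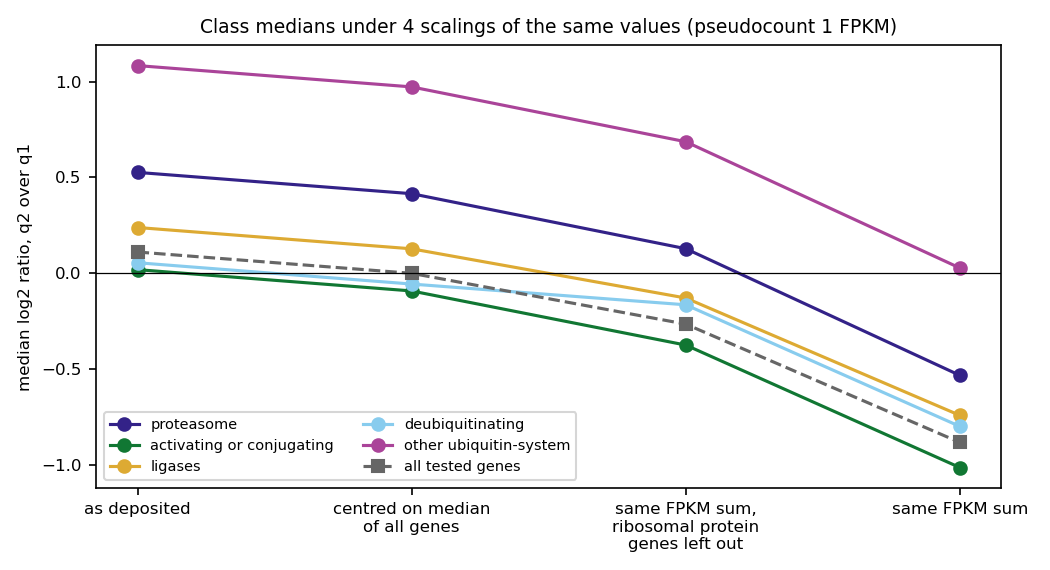
Median log2 ratio of q2 over q1 (1 FPKM added) for the 5 classes and for all tested genes under 4 scalings of the same values. The proteasome median goes from 0.53 as deposited to -0.53 at the same FPKM sum, where the median of all tested genes is -0.88. With 1 FPKM added, the same-sum scalings lower the ratios of genes at low levels less, so the gaps between classes change somewhat. The deubiquitinating median goes from 0.06 as deposited to -0.80 at the same FPKM sum, so its gap to the proteasome narrows. Under each scaling the proteasome median stays above those of the ligases and of the activating, conjugating and deubiquitinating enzymes.

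Genes of the pathway outside the members were counted from lists of name words. Of 16 genes, which apart from 1 suppressor of skp1 belong to the anaphase-promoting complex, a cell cycle ligase, or to the COP9 signalosome, which removes NEDD8 from cullins, 0 were called by Cuffdiff and 0 had an unadjusted p under 0.05, where the shares of all tested genes were 5.53% and 14.6%. Their median log2 ratio was 0.51, with 12 higher in q2 and 3 on the same-sum scale. APC subunit 10 (CED84300) had the highest ratio, with 84.3 and 209.8 FPKM and a log2 ratio of 1.32, and the Cdc20, Cdh1 and Ama1 activator gene (CDZ97112) the lowest, with 29.9 and 21.9 FPKM and -0.45. Of 10 genes named for a RING or RING/FYVE/PHD-type finger but with no ubiquitin word, 1 was called, against 5.53% of all tested genes. This gene (CED82114) rose from 17.8 to 87.9 FPKM, a log2 ratio of 2.30 with q 0.00226 in the authors' deposited table, and the list median was 0.02.

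Of 8 autophagy genes, which serve the other main route of protein breakdown, 0 were called by Cuffdiff and 0 had an unadjusted p under 0.05, against 5.53% and 14.6% of all tested genes. The list median was 0.10, or -0.88 on the same-sum scale. Among 24 carboxypeptidases, aminopeptidases and aspartyl proteases, 3 were called higher and 0 lower, where 3.65% and 1.88% of all tested genes were called. An unadjusted p under 0.05 was reached by 6 with higher and 2 with lower values, against 10.5% and 4.13% of all tested genes. The list median was 0.51, or -0.53 on the same-sum scale. The called genes were a serine carboxypeptidase of the lysosomal cathepsin A type (CED82580, 8.43 and 55.6 FPKM, log2 ratio 2.72), a carboxypeptidase s (CED85327, 23.0 and 79.2 FPKM, 1.78) and an aspartyl aminopeptidase (CED82722, 28.3 and 87.6 FPKM, 1.63). A list for Cdc48 and protein degradation at the endoplasmic reticulum matched 0 names.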

How the data were processed

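Per the submitters' processing notes, the authors used FastQC, Trimmomatic, TopHat, Cufflinks and Cuffdiff; versions, genome build, annotation and normalization between libraries are stated in no source used here. Per the labels' protocols, library preparation used Illumina's stranded mRNA chemistry. The deposited table gives FPKM per gene for q1 and q2 and, per the file headers, the log2 ratio, a test score (not used), a p-value and a q-value. Column checks found that the authors' log2 ratio differed from one recomputed from FPKM by at most 1.38e-05, and their q-value from a Benjamini-Hochberg adjustment over 6272 genes by at most 5.26e-07. A gene was called at the authors' q below 0.05. Single log2 ratios have no pseudocount and class medians have 1 FPKM added. The implied SE is the absolute log2 ratio divided by the normal quantile of the two-sided p-value, and intervals are 95%.

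Classes were assigned by words in the names, with 4 genes placed by hand. Members, classes and lists were chosen with earlier results of these data known. Genes named are those at an unadjusted p below 0.05, the 3 highest and 3 lowest ratios and 2 highest levels per class, all core and regulatory subunits, and other members and partner genes chosen after their values were seen. Starts are the file's start plus 1, because 257 of 461 short genes (under 600 bases) had a difference of end and start divisible by 3. Medians, the adjustment and the implied SE were tested on simulated data. Python 3.11.15, pandas 2.3.3, numpy 2.4.6, scipy 1.17.1 and matplotlib 3.10.9 were used.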

Additional observations from a re-analysis of the deposited data

How the results depend on the processing

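The count of 1 called member was the same at q below 0.01 and 0.10, among genes of at least 10 FPKM in 1 condition or 1 FPKM in both, with RAD read in any case and with no name left out; at an unadjusted p below 0.05 it was 16. Centred on the median of all genes, class medians (log2) were 0.42 for the proteasome, -0.092 for activating and conjugating enzymes, 0.13 for ligases and -0.056 for deubiquitinating proteases. At the same FPKM sum they were -0.53, -1.01, -0.74 and -0.80, and at the same sum without ribosomal protein genes 0.13, -0.37, -0.13 and -0.16, in that order. Before a pseudocount is added, the construction of these scalings lowers every ratio alike. With 1 FPKM added, the same-sum scalings lower the ratios of genes at low levels less. Core and regulatory subunits alone gave 0.66. For the deubiquitinating proteases, 0.1 FPKM added gave 0.23 and no pseudocount 0.23, because the untested gene at 0.157 FPKM then moves past the middle of the class. All other alternatives moved the medians of these 4 classes by less than 0.1, and the proteasome minus the 3 enzyme classes stayed between 0.27 and 0.37. Of 61 genes named by the rule, 24 changed sign at the same FPKM sum and 0 with 1 FPKM added; the called ligase kept its sign. No paired analysis was possible because the table holds no values per culture, and leaving out replicates could not be run for the same reason. Depth is unknown, so no limit from counting error can be given.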

Other observations

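The rule left out 3 genes whose names hold ubiquitin or SUMO, and their values are given here. The fusion of ubiquitin with 60S ribosomal protein L40 (CED85139) had 6514 FPKM in q1 against 33599.6 in q2, a log2 ratio of 2.37 with a q-value of 0.487 in the authors' deposited table. The fusion with 40S ribosomal protein S31 (CDZ96411) had 14791 and 33534 FPKM, a log2 ratio of 1.18 with a q-value of 0.774 in the authors' deposited table. In yeasts such fusions are known to supply free ubiquitin in growing cells. Neither was called, and on the same-sum scale the log2 ratios were 1.30 and 0.11. These levels are far above those of the 134 members, of which the highest is 1220.2 FPKM. AOS1 (CDZ97450), the partner of UBA2 in the SUMO-activating enzyme, had 76.1 and 74.4 FPKM, a log2 ratio of -0.03, where UBA2 (CDZ97771) had 2.02 with an implied SE of 0.91. The difference between these subunits was not tested.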
